A study of Mus musculus with 6 samples.

Results

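A set of 10 genes that restrain MAP kinase signalling was followed in intestinal cultures that the study termed enteric glial cells (EGCs). The cultures were taken at rest and after lipopolysaccharide (LPS, from the outer membrane of Gram-negative bacteria). Their RNA also held markers of mesenchymal, smooth muscle, macrophage and neuronal cells, so the levels given are those of whole cultures and not of glia alone. The genes were chosen by symbol and comprise 7 dual-specificity phosphatases (Dusp1, Dusp2, Dusp4, Dusp5, Dusp6, Dusp10 and Dusp16) and 3 Sprouty genes (Spry1, Spry2 and Spry4). All 10 were found, each with 1 identifier, among 46603 genes. The study was concerned with signals from EGCs to monocytes, and sequenced poly(A) RNA of 3 control samples without treatment and of 3 samples given LPS at 100 ng/ml for 12 h. All 6 were C57BL/6J mouse cells, grown out of neurospheres from whole intestine of E14.5 embryos, with EGF and FGF in the medium for the first week, and then kept on coated plates in medium with serum until they covered the plate. The labels did not say whether a replicate was a separate litter or culture, so p-values measure the spread between these samples, which may be technical.

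MAP kinases carry signals from growth factor and Toll-like receptors to the nucleus, and they are active only while phosphorylated on a threonine and a neighbouring tyrosine. Dual-specificity phosphatases remove the phosphate from both residues. Many of them are themselves transcribed when MAP kinases are active, so that they form a negative feedback loop, and in macrophages DUSP1 is known to limit the cytokine response to LPS. Sprouty proteins act further upstream, between receptor tyrosine kinases and RAS and RAF, and are induced by fibroblast growth factor signalling through ERK.

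In these cultures the RNA of Dusp2, Dusp5 and Dusp16 was higher after LPS, whereas no gene of the set was called lower by the edgeR fit with TMM scaling and no block. With the replicate number as a block, Dusp10 was also called higher and Dusp1, Dusp4 and Spry4 were called lower. The block takes libraries of the same number as pairs, which the labels do not state. Upper-quartile scaling, library size alone and DESeq2 also called Dusp4 lower. The calls of Dusp2, Dusp5 and Dusp16 in the fit with no block were all lost when control replicate 1, control replicate 2 or LPS replicate 2 was left out, and without LPS replicate 1 that of Dusp5 alone was kept. Dusp2, a nuclear phosphatase best known from activated leukocytes, rose 19.5-fold from a level near the detection limit. Dusp16, which acts mainly on JNK and p38, rose 1.86-fold, and Dusp5, a nuclear phosphatase that acts on ERK, rose 1.54-fold. These were 3 of 10 genes, against 9.09% of all 15226 genes tested that were called higher and 6.71% that were called lower (edgeR quasi-likelihood test, Benjamini-Hochberg adjusted p under 0.05). Dusp2 entered the test only through its LPS libraries and therefore had to be high there, and without it 2 of 9 genes were called. The median log2 fold change was 0.02 over the 10 genes and -0.02 over all genes tested.

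The sequences upstream of the 3 genes that rose are shown because it is there that a shared control element could be looked for, and that of Dusp1 because it held the one further match among the genes with an entry. The windows come from RefSeq (GRCm38.p6). They hold up to 250 bases before the RefSeq start, which for Dusp1 and Dusp5 lies inside the longer GENCODE gene. They leave out any base that GENCODE M21 places in an exon of the gene, so that those of Dusp1 and Dusp5 end short of the RefSeq start. All are written 5′ to 3′ on the strand of the gene. Capitals mark the motif matches described next.
Dusp2 (chr2:127335909-127336158, plus strand): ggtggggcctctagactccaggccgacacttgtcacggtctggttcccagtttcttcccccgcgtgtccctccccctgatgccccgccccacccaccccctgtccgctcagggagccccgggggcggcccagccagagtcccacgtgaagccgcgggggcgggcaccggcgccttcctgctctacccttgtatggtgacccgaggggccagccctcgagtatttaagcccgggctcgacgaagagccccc
Dusp5 (chr19:53528895-53529108, plus strand): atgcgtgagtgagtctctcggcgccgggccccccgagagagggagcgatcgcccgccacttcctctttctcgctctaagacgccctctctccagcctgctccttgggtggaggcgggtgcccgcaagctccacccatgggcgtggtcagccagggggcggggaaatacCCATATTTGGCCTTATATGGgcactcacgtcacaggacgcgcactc
Dusp16 (chr6:134792629-134792878, minus strand): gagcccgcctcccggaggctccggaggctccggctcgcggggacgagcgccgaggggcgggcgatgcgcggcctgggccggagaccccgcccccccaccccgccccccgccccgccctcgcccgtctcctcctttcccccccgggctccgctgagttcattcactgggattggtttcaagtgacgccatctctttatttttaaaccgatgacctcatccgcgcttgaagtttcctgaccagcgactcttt
Dusp1 (chr17:26508520-26508722, minus strand): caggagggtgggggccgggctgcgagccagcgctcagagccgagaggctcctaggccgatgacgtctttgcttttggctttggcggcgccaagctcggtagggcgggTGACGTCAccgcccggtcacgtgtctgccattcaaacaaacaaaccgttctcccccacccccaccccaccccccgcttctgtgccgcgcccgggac

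Both strands of the 250-base windows were searched for the cyclic AMP response element TGACGTCA, the AP-1 site TGANTCA, the ETS site CCGGAAG, the CArG box bound by serum response factor, and the κB site bound by NF-κB. Of the 10 genes 8 had a window, and Dusp4 and Spry4 had none. Dusp5 held a pair of adjacent CArG boxes, which began 82 and 72 bases before its RefSeq start, and no other window of the set held one. Over all 32841 RefSeq windows of this length, 1.47% held a CArG box. Dusp1 held the response element TGACGTCA 143 bases before its RefSeq start, and 1.55% of all windows held this element. No window of the 8 held the AP-1, ETS or κB letters, which were present in 6.75%, 6.91% and 3.90% of all windows. A match of letters is a description of the sequence and was not tested for binding.

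Before the comparison, the libraries themselves were examined. The smallest library held 18775316 counts and the largest 23664312. The library numbered 3 stood apart in each group. Across genes, the log2 of scaled counts relative to library size (CPM) of control replicate 3 correlated with control replicates 1 and 2 at r = 0.970 and 0.977, against 0.995 between those. For LPS replicate 3 the values were 0.958 and 0.962, against 0.994 between LPS replicates 1 and 2 (genes are not independent replicates). The glial transcription factor Sox10 was present in all 6 libraries, with a mean of 88.0 ± 13.5 CPM in the controls and of 77.0 ± 1.16 CPM after LPS (SD, n = 3 each). All 7 glial markers were above 3 counts in every library, and of these S100b was called lower (log2 fold change -1.91) and Fabp7 higher (1.29), while Sox10 and the other 4 were not called. The sum of the glial markers lay between 263.6 and 377.0 CPM, and that of 6 mesenchymal markers (3 collagen genes, Pdgfra, Dcn and Lum) between 14781 and 15716 CPM. Of the mesenchymal markers Dcn (log2 fold change 0.90) and Pdgfra (0.50) were called higher and none lower (edgeR; 1 lower with the replicate block). Of 12 macrophage markers, 11 were above 3 counts in every library and none was at 0 throughout. Their summed level was 3889, 5013 and 11909 CPM in control replicates 1, 2 and 3 and 4040, 5248 and 19710 CPM in LPS replicates 1, 2 and 3. Lyz2 made up most of this sum, and single markers moved with LPS in different directions. Adgre1 was called higher (log2 fold change 2.78, and 1.95 to 3.36 without 1 library; edgeR, adjusted p = 0.0452), and the blocked fit called 5 of the 12 higher and 3 lower. Cd14 had log2 ratios of 2.97, 2.59 and 1.89 in the pairs numbered 1, 2 and 3, and Mrc1 of -4.41, -5.00 and -2.52. The sum of 6 neuronal markers ran the other way, with 412.4, 409.8 and 243.9 CPM in the controls and 380.6, 399.8 and 258.9 CPM in LPS. Of these 6 neuronal markers 1 was called lower after LPS and 0 higher (edgeR, with and without the replicate block). This call was not kept in every fit without 1 library. Smooth muscle markers moved with LPS: all 6 were called lower, and their sum was 2480, 2492 and 2266 CPM in the controls against 900.3, 882.1 and 634.1 CPM in LPS. Of the called glial, mesenchymal and macrophage markers, none was still called when control 1, control 2 or LPS 2 was omitted, and Fabp7 alone when LPS 1 was (edgeR, highest adjusted p from 0.0651 for Pdgfra to 0.169 for Adgre1). Of the smooth muscle markers, Tagln, Cnn1, Des and Actg2 kept theirs in every such fit. The part of any of these markers in the differences between LPS and control given next was not tested. In bulk RNA, fewer cells of a type and less RNA per cell cannot be told apart.

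**Figure D1:**
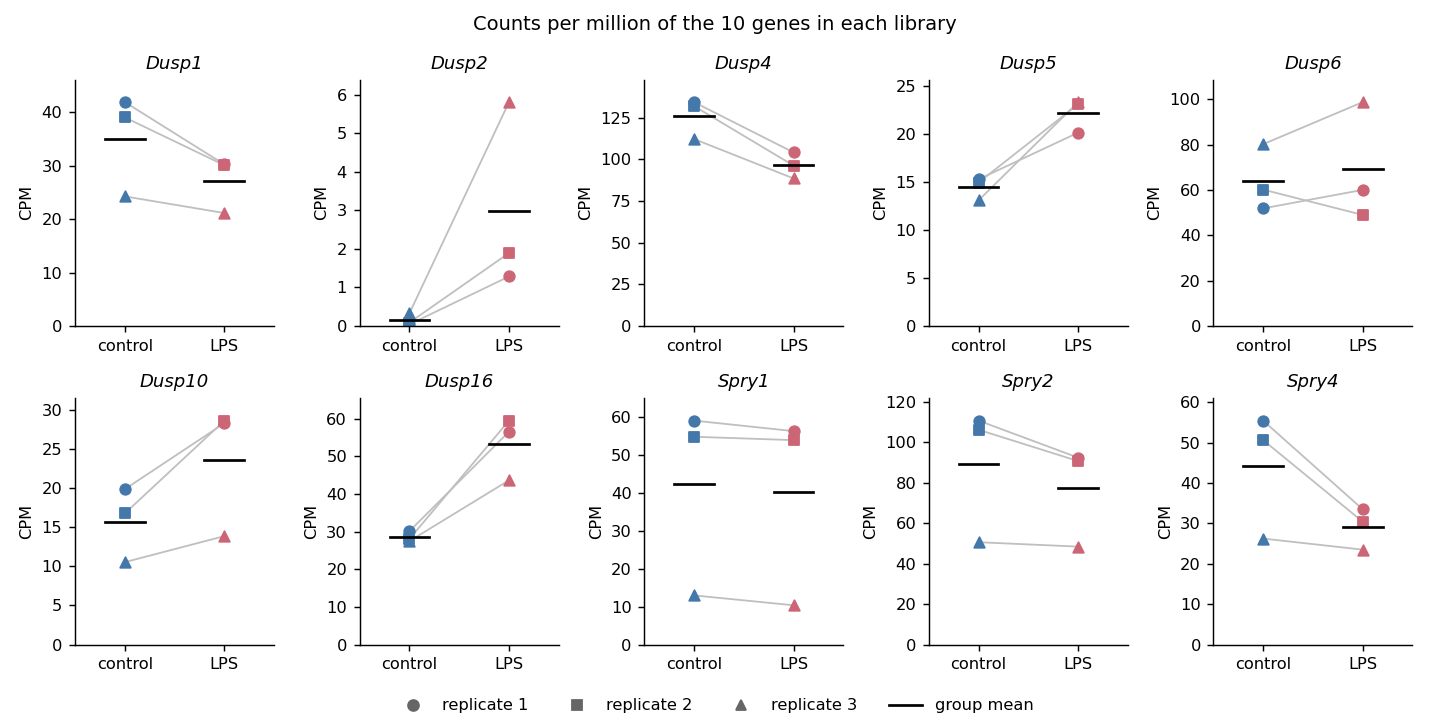
Scaled counts (CPM) of each gene (vertical axis) in the 3 control and 3 LPS libraries; symbols give the replicate number, grey lines join libraries of the same number and black bars are group means. Dusp2, Dusp5 and Dusp16 are higher in all 3 LPS libraries and Dusp4 is lower in all 3, while Spry1 and Spry2 differ more between replicate 3 and the others than between control and LPS.

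Among the nuclear phosphatases, Dusp2 (ENSMUSG00000027368, chr2:127336159-127338376, plus strand) was counted 1, 2 and 8 times in the controls, in the order of their numbers, and 26, 34 and 111 times in the LPS libraries. In CPM these were 0.0424, 0.0885 and 0.331 in control and 1.28, 1.89 and 5.81 in LPS. Every LPS library lay above every control library, and in each group the library numbered 3 was the highest. The fit gave a difference of 4.22 on the log2 scale (SE 0.91, adjusted p = 0.0322 by edgeR), in a direction that its passage through the filter had fixed. Taken pair by pair, LPS over control of the same number, the log2 ratios were 4.92, 4.42 and 4.14. The order of the libraries within each group was that of the summed macrophage markers, and of the 12 markers 6 were higher and 3, Cd68, Cx3cr1 and Mrc1, lower after LPS in every pair. The part of these markers in the level of Dusp2 was not tested. When both libraries numbered 3 were left out, an alternative added after seeing the data, the log2 fold change was 4.51 (adjusted p = 0.000854 by edgeR). It ran from 3.30 to 5.41 when 1 library was left out, and the fits that omitted control 1, control 2, LPS 1 or LPS 2 no longer called it (adjusted p = 0.111, 0.138, 0.0549 and 0.0818 by edgeR).

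Dusp5 (ENSMUSG00000034765, chr19:53529109-53542431, plus strand) is the ERK-directed phosphatase whose window held the pair of CArG boxes. It was at 15.3, 14.96 and 13.1 CPM in control replicates 1, 2 and 3 and at 20.2, 23.1 and 23.3 CPM in LPS. The groups did not overlap, and neither library numbered 3 stood out. It rose by 0.62 on the log2 scale (SE 0.11, adjusted p = 0.0201 by edgeR), with 0.40, 0.63 and 0.83 in the 3 pairs. It was not called when control 1, control 2 or LPS 2 was omitted (edgeR, adjusted p = 0.0677, 0.0882 and 0.0869). An antisense transcript overlaps exons of Dusp5, and since the strand setting of the counting was not given, reads of the 2 genes may not have been kept apart.

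Dusp4 (ENSMUSG00000031530, chr8:34807297-34819894, plus strand), another nuclear phosphatase and the most abundant gene of the set at rest by CPM, moved the other way. It was at 134.3, 131.9 and 112.2 CPM in control replicates 1, 2 and 3 and at 104.1, 96.2 and 88.5 CPM in LPS. Every LPS library lay below every control library, and the 3 pairs gave log2 ratios of -0.37, -0.45 and -0.34. With all 6 libraries the difference of -0.39 on the log2 scale missed the threshold (SE 0.10; edgeR, adjusted p = 0.0569). With the replicate number as a block it was -0.39 (edgeR, adjusted p = 0.0126), and without both libraries numbered 3 it was also -0.39 (0.00292).

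Dusp1 (ENSMUSG00000024190, chr17:26505590-26562128, minus strand) is the phosphatase most often studied in LPS responses, where it acts on p38 and JNK. It was at 41.9, 39.0 and 24.3 CPM in control replicates 1, 2 and 3 and at 30.2, 30.1 and 21.1 CPM in LPS. The groups overlapped because control replicate 3 lay below LPS replicates 1 and 2, although within each pair LPS was lower (log2 ratios -0.47, -0.38 and -0.20). Without a block the difference of -0.37 on the log2 scale was not called (SE 0.25, adjusted p = 0.364 by edgeR), and with the replicate block it was -0.35 (SE 0.08, adjusted p = 0.0375 by edgeR). Exons of Dusp1 overlap exons of Ergic1 on the other strand, which leaves its counts open to the same uncertainty as those of Dusp5.

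The cytoplasmic ERK phosphatase Dusp6 (ENSMUSG00000019960, chr10:99263231-99267489, plus strand), a classical marker of ERK activity, showed no shared direction. It was at 51.9, 60.2 and 80.3 CPM in control replicates 1, 2 and 3 and at 60.1, 49.0 and 98.8 CPM in LPS. The 3 pairs gave log2 ratios of 0.21, -0.30 and 0.30, and it was the one gene of the set whose pairs differed in sign. Its log2 fold change was 0.11 (SE 0.30, adjusted p = 0.837 by edgeR), and it was -0.046 when libraries were scaled by their size alone.

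Dusp10 and Dusp16 encode phosphatases directed mainly at JNK and p38. Dusp16 (ENSMUSG00000030203, chr6:134715468-134792625, minus strand) was at 30.1, 28.1 and 27.5 CPM in control replicates 1, 2 and 3 and at 56.6, 59.5 and 43.7 CPM in LPS. The control libraries lay close together and all LPS libraries were above them, LPS replicate 3 the least. It rose by 0.90 on the log2 scale (SE 0.13; edgeR, adjusted p = 0.0119), with 0.91, 1.08 and 0.67 in the 3 pairs. It was not called when control 1, control 2, LPS 1 or LPS 2 was omitted (edgeR, adjusted p = 0.0538, 0.0729, 0.0519 and 0.0520).

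Dusp10 (ENSMUSG00000039384, chr1:184013302-184075636, plus strand) was at 19.9, 16.8 and 10.5 CPM in control replicates 1, 2 and 3 and at 28.3, 28.6 and 13.9 CPM in LPS. It was higher in LPS within every pair (log2 ratios 0.51, 0.77 and 0.40), but LPS replicate 3 lay below control replicates 1 and 2 and the groups overlapped. Without a block the difference was 0.59 on the log2 scale (SE 0.36, adjusted p = 0.316 by edgeR). With the replicate block it was 0.56 (SE 0.10, adjusted p = 0.0220 by edgeR).

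In all 3 Sprouty genes the libraries numbered 3 were lower than the others of their group, and for Spry1 and Spry2 this difference exceeded that between LPS and control. Spry1 (ENSMUSG00000037211, chr3:37639947-37644598, plus strand) was at 59.2, 54.9 and 12.98 CPM in control replicates 1, 2 and 3 and at 56.4, 54.0 and 10.4 CPM in LPS. The libraries numbered 1 and 2 were alike with and without LPS, and the libraries numbered 3 were at 0.228 of the mean of the other controls and 0.188 of the mean of the other LPS libraries. LPS and control differed by -0.07 on the log2 scale (SE 0.78, adjusted p = 0.961 by edgeR), and with the replicate block it was -0.13 (SE 0.08, adjusted p = 0.300). Exons of Spry1 overlap an unclassified transcript on the other strand.

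Spry2 (ENSMUSG00000022114, chr14:105891947-105896819, minus strand) was at 110.7, 106.2 and 50.6 CPM in control replicates 1, 2 and 3 and at 92.4, 90.7 and 48.4 CPM in LPS. It was lower in LPS within every pair, with log2 ratios of -0.26, -0.23 and -0.06. With all libraries the difference of -0.21 (SE 0.38) was not called (edgeR, adjusted p = 0.751), nor was it with the replicate block (-0.19, adjusted p = 0.0981). Without both libraries numbered 3 it was -0.22 and was called (adjusted p = 0.0199 by edgeR).

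Spry4 (ENSMUSG00000024427, chr18:38586247-38601415, minus strand) had the lowest LPS to control ratio of the Sprouty genes. It was at 55.5, 50.6 and 26.2 CPM in control replicates 1, 2 and 3 and at 33.5, 30.4 and 23.5 CPM in LPS. LPS replicate 1 lay above control replicate 3, so that the groups overlapped, while the 3 pairs gave log2 ratios of -0.73, -0.74 and -0.16. With all libraries its log2 fold change was -0.60 and was not called (SE 0.30; edgeR, adjusted p = 0.235). It was -0.55 with the replicate block (SE 0.14; edgeR, adjusted p = 0.0461), -0.85 when control replicate 3 was left out (0.0366) and -0.71 without both libraries numbered 3 (0.000903).

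**Figure D2:**
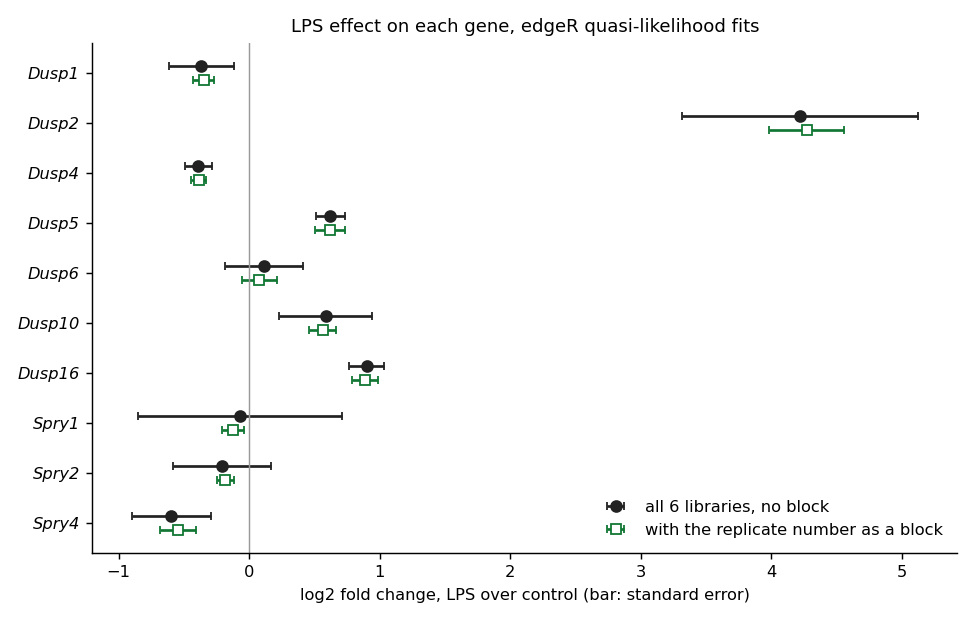
Log2 fold change of LPS over control (horizontal axis) for each gene, with all 6 libraries and no block (filled circles) and with the replicate number as a block (open squares); bars are standard errors. The estimates hardly differ between the fits, whereas the standard error of Spry1 goes from 0.78 to 0.08.

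Counted over the set, Dusp2, Dusp5 and Dusp16 were higher in LPS without overlap between the groups and Dusp4 was lower without overlap, 4 of 10 genes against 38.7% of all genes tested (19.3% higher and 19.4% lower). Dusp2, Dusp5, Dusp10 and Dusp16 were higher in all 3 pairs and Dusp1, Dusp4, Spry1, Spry2 and Spry4 lower in all 3, 9 of 10 genes against 65.6% of all genes (31% higher and 34.6% lower). With the replicate block 7 of 10 genes were called, Dusp2, Dusp5, Dusp10 and Dusp16 higher and Dusp1, Dusp4 and Spry4 lower, against 30.3% of all genes (15.4% higher and 14.9% lower). Without both libraries numbered 3 the count was 8 of 10, 4 in each direction, against 43% of all genes (22.6% higher and 20.4% lower). Since the direction of Dusp2 was fixed by its filter, the same counts without it were 3 of 9 without overlap, 8 of 9 with 1 direction in all pairs, 6 of 9 with the block and 7 of 9 without both libraries numbered 3. These shares describe genes that were chosen with earlier results of these data known.

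In the fits that left out control replicate 1, control replicate 2 or LPS replicate 2, none of the 10 genes was called (edgeR). Over all genes these fits called from 379 to 523 genes higher, against 1384 with all 6 libraries. In the fits without 1 library the log2 fold change lay between 0.57 and 0.69 for Dusp5 and between 0.81 and 1.02 for Dusp16, whereas Dusp6, Spry1 and Spry2 changed sign in at least 1 of them.

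The level in replicate 3 relative to replicates 1 and 2 was then compared between the genes. The ratio was 5.05 in control and 3.65 in LPS for Dusp2, the former from 8 counts against 1 and 2, and 1.43 and 1.81 for Dusp6. It was 0.466 and 0.529 for Spry2, 0.495 and 0.735 for Spry4, 0.575 and 0.487 for Dusp10 and 0.599 and 0.701 for Dusp1. Dusp4, Dusp5 and Dusp16 stayed between 0.752 and 1.08. Over 11473 genes with a mean of at least 5 CPM, 3.69% were under 0.5 in control replicate 3 and 4.58% in LPS replicate 3, and 4.16% and 5.94% were over 2. Summed macrophage markers were higher and summed neuronal markers lower in the same libraries, and their part in these ratios was not tested.

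**Figure D3:**
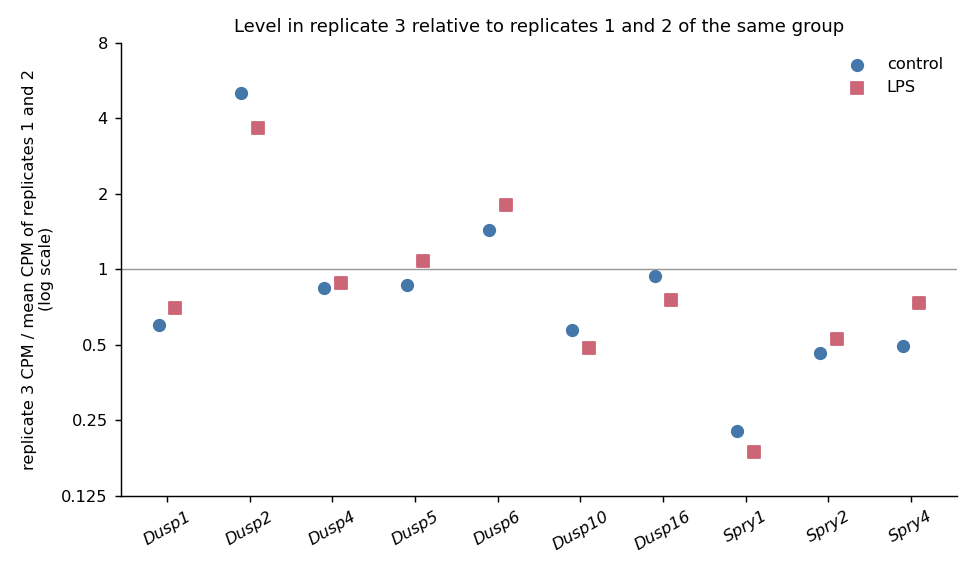
CPM in replicate 3 divided by the mean CPM of replicates 1 and 2 of the same group (vertical axis, log scale) for each gene, in control (circles) and LPS (squares). Spry1 is lowest in both groups, at 0.228 and 0.188, and Dusp2 highest, at 5.05 and 3.65.

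Levels were compared between genes as CPM per kilobase of exon. In control, Dusp4 (46.0 ± 4.43) and Spry2 (42.7 ± 16.0) were highest, followed by Dusp6 (20.5 ± 4.65), Spry1 (14.6 ± 8.78), Dusp1 (10.6 ± 2.86) and Spry4 (9.28 ± 3.30; SD, n = 3 each). Dusp5, Dusp10 and Dusp16 followed at 5.84 ± 0.48, 5.17 ± 1.56 and 3.66 ± 0.18, and Dusp2 was last at 0.077 ± 0.077 (SD, n = 3 each). The ranges of neighbours in this order overlapped throughout except for Dusp16 and Dusp2. Dusp4 lay at percentile 94.0 of the genes tested and Dusp2 at percentile 1.25.

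In LPS, the order by level per kilobase opened with Spry2 (37.0 ± 11.9) and Dusp4 (35.1 ± 2.85; SD, n = 3 each), whose ranges overlapped. Dusp6 followed at 22.1 ± 8.35, clear of Dusp4, and Spry1 at 13.9 ± 8.92. Dusp5, Dusp1, Dusp10, Dusp16 and Spry4 lay close together, between 8.98 and 6.13, and the ranges of neighbours overlapped. Per kilobase of coding sequence Spry4 had the highest mean of these, 32.4 against 16.3 to 25.2 for the other 4. Dusp2 was still last, at 1.50 ± 1.23 (SD, n = 3), and had moved to percentile 26.1 of the genes tested.

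**Figure D4:**
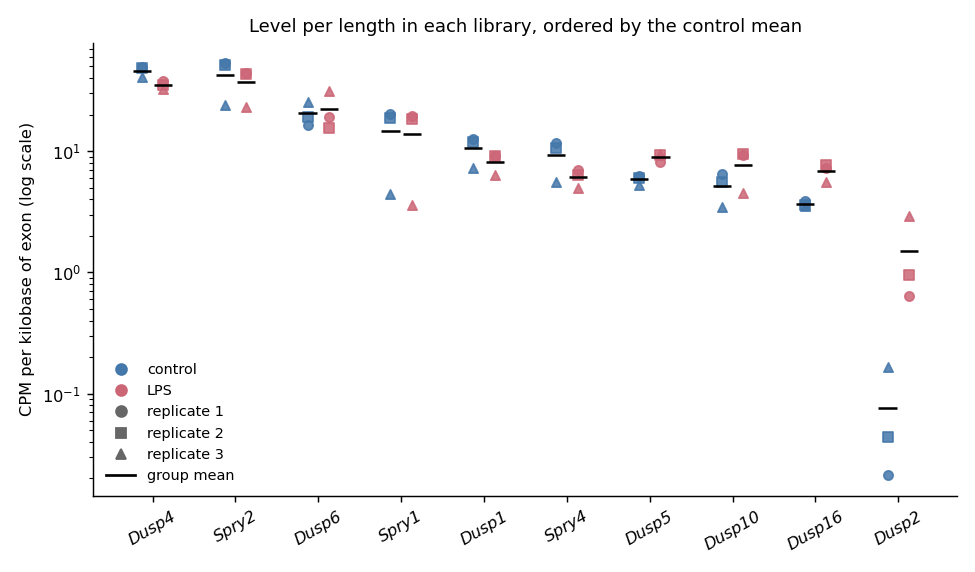
CPM per kilobase of exon (vertical axis, log scale) in each library, genes ordered by their control mean; colours give the group, symbols the replicate number and black bars the group mean. Levels run from 46.0 for Dusp4 to 0.077 for Dusp2 in control.

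For each gene the most similar other transcript was taken as that with the highest Pearson correlation of log2(CPM + 1) over the 6 libraries, among about 11480 genes of at least 5 CPM. This was Lif (r = 0.999) for Dusp16, Serp1 (0.999) for Dusp2, Rnf121 (0.997) for Dusp5, Tmem263 (0.998) for Dusp10 and Top2b (0.999) for Dusp4. It was Hdac11 (0.998) for Dusp1, Lamp1 (0.994) for Dusp6, Smoc2 (0.998) for Spry1, Msi2 (0.999) for Spry2 and Atl1 (0.999) for Spry4. With 6 points that fall into 2 groups and so many candidates, values this high describe a shared pattern over these libraries only.

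The rest of the pathway was examined from lists, whose counts stand against 9.09% of all genes called higher and 6.71% lower, or 15.4% and 14.9% with the replicate block. Of 19 other MAP kinase phosphatases and atypical dual-specificity phosphatases, none was called higher (edgeR; 2 with the replicate block) and 1 was called lower (3 with the block). The 1 called without the block was Dusp14, with a mean of 8.40 ± 1.20 CPM in the controls and of 3.73 ± 0.68 CPM after LPS (SD, n = 3 each). LPS and control differed by -1.17 on the log2 scale (SE 0.20; edgeR, adjusted p = 0.0178). Among 18 other feedback inhibitors of receptor tyrosine kinase and RAS signalling, 2 were called higher and 2 lower (4 and 3 with the block). Errfi1, which inhibits EGF receptors, rose by 1.40 on the log2 scale and Spred3, a Sprouty-related inhibitor, by 0.57. Rgs2, a regulator of G protein signalling, fell by 2.42 and the ubiquitin ligase gene Cblb by 0.75.

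Among the kinases, 12 of 13 MAP kinase genes passed the filter. Mapk7, which encodes ERK5, was called higher (log2 fold change 0.39) and Mapk4 lower (-1.27), and the other 10 were not called. The blocked fit called 6 higher and 1 lower, and those gained were Mapk6, Mapk8 of the JNK group, and Mapk11, Mapk13 and Mapk14 of the p38 group, with log2 fold changes from 0.33 to 0.79 and adjusted p from 0.0234 to 0.0431 (edgeR; named after their values were seen). Of 27 genes for RAS, RAF and the kinases upstream of MAP kinases and their partners, 5 were called higher and 0 lower (edgeR; 7 and 3 with the replicate block). Map3k8, whose kinase TPL2 links Toll-like receptors to ERK, had a mean of 9.46 ± 0.78 CPM in the controls and of 34.05 ± 3.75 CPM after LPS (SD, n = 3 each), a rise of 1.85 on the log2 scale (SE 0.12; edgeR, adjusted p = 0.000883). Nfkb1, whose precursor protein holds TPL2 inactive, rose by 1.86, Map2k1, which encodes MEK1, by 1.13, Map2k3 by 0.34 and Map2k2 by 0.27 on the log2 scale. Of 11 identifiers for kinases downstream of MAP kinases (Mapkapk5 had 2), Mapkapk2 and Rps6ka4 were called higher (log2 fold changes 1.17 and 0.81), and Rps6ka2 and Rps6ka3 lower (-0.90 and -0.36). The block called 2 of these kinases higher and 3 lower.

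Of 18 transcripts known to follow ERK activity, 6 were called higher and 1 lower (7 and 3 in the blocked fit). Without both libraries numbered 3 the counts were 10 and 3, against 22.6% of all genes higher and 20.4% lower in that fit. Ier3 rose by 3.56, Fosl1 by 1.71, Phlda1 by 1.61, Maff by 1.58 and Junb by 1.31 on the log2 scale. The gene called lower was Ccnd1, which encodes cyclin D1 (log2 fold change -1.22) and was named after its value was seen. With the block, Etv5 (log2 fold change -0.78) and Egr1 (-0.34) were also called lower (edgeR, adjusted p = 0.00874 and 0.0344). Egr2 was the one gained on the higher side (1.59; edgeR, adjusted p = 0.00379). The transcripts of this list thus did not share 1 direction. The median log2 fold change was 0.31 over the 18 transcripts, 0.16 over the other feedback inhibitors, -0.08 over the other phosphatases, 0.30 over the MAP kinases, 0.085 over RAS, RAF and the upstream kinases and -0.11 over the downstream kinases, against -0.02 over all genes tested.

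Of the 22 pathway genes named from calls without the block, Map3k8, Nfkb1, Map2k1, Mapkapk2 and Junb kept their call whichever library was left out. The other 17 lost it without control replicate 2, 16 without control replicate 1, 14 without LPS replicate 1, 12 without LPS replicate 2, 4 without control replicate 3 and 1 without LPS replicate 3. The highest adjusted p of these 17 in the fits without 1 library ran from 0.063 for Ier3 to 0.184 for Map2k3 (edgeR). With all 6 libraries, Map2k2 and Map2k3 also lost their call with upper-quartile scaling, library size alone, no filter on low counts, the edgeR exact test and limma-voom. Mapk7 lost it with library size alone, no filter and the exact test, Rps6ka3 with no filter and the exact test, Spred3 with library size alone, and Fosl1 and Maff with limma-voom.

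**Figure D5:**
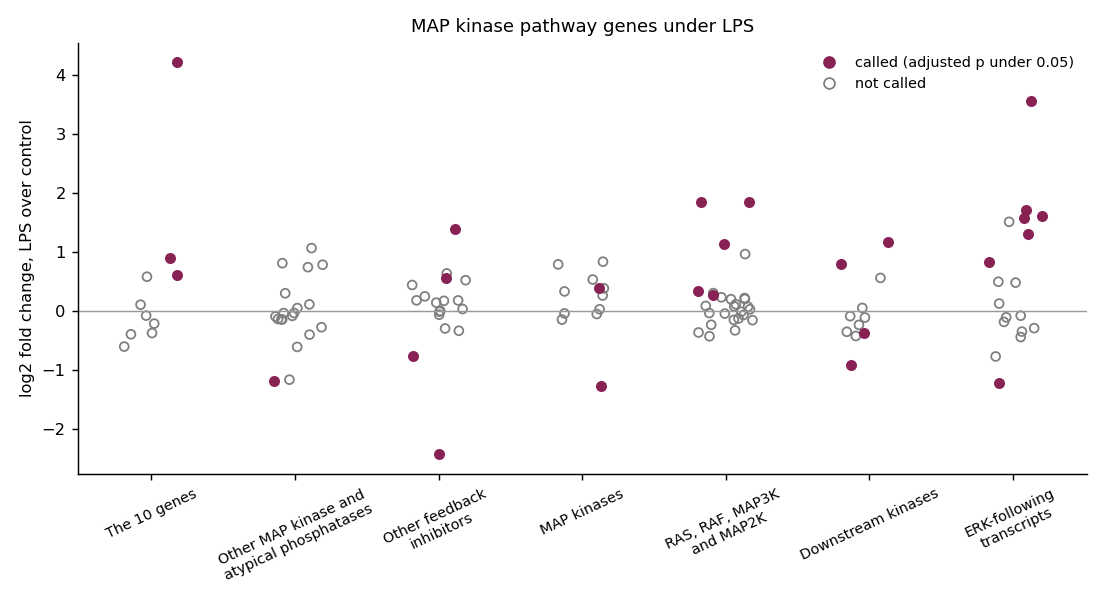
Log2 fold change of LPS over control (vertical axis) of the 10 genes and of the members of 6 pathway lists; each point is a gene, filled where it was called (adjusted p under 0.05, edgeR). The called genes run from -2.42 for Rgs2 to 4.22 for Dusp2, and most genes of each list are not called.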

How the data were processed

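The deposited files held counts of reads per gene, not normalized. Per the labels, the authors trimmed reads with cutadapt 1.15, removed contaminants with Bowtie2 2.3.3.1, aligned to GRCm38 with STAR 2.5.2b and counted with featureCounts 1.5.3. Libraries were made with a stranded poly(A) kit, but the strand setting and the handling of multiply aligned reads were not given in the sources used here. A table that repeats the same counts for all samples was not used.

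Genes with low counts were removed with filterByExpr of edgeR 4.0.16 (minimum count 10, minimum total 15; R 4.3.3), which left 15226 of 46603 genes. CPM used trimmed mean of M-values (TMM) scaling. LPS and control were compared with the two-sided edgeR quasi-likelihood test, with no term besides group and p-values adjusted over every tested gene (Benjamini-Hochberg), after a check on simulated counts. The SE is the absolute log2 fold change divided by the square root of F. Positions and exon lengths came from GENCODE M21 (GRCm38), in which 46005 identifiers were found.

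Replicate numbers were used as a block in an alternative. After subtracting each group's mean, control and LPS libraries with the numbers 1, 2 and 3 correlated across genes at r = 0.581, 0.391 and 0.635. All were above the limit of 0.1 set for treating the numbers as pairs. Control replicate 1 with LPS replicate 2 (0.466) and control replicate 2 with LPS replicate 1 (0.397) were above it too. The check thus sets the libraries numbered 3 apart, but it cannot tell which of the libraries numbered 1 and 2 belong together. The labels do not say what the numbers stand for.

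The 10 genes and the lists were chosen with earlier results of these data known. Named were all 10, at most 5 called genes per pathway list with the largest change, and the most similar transcript of each of the 10. Ccnd1, Etv5, Egr1, Egr2, 5 MAP kinase genes called with the block and single cell type markers were named in addition, after their values were seen. Other scalings, filters, tests and leaving out libraries were alternatives.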

Additional observations from a re-analysis of the deposited data

How the results depend on the processing

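Over up to 16 alternatives per gene, the direction of Dusp1, Dusp2, Dusp4, Dusp5, Dusp10, Dusp16 and Spry4 did not change. Dusp6 was -0.046 with library size alone and -0.013 without both libraries numbered 3, and without 1 library it ran from -0.23 to 0.32, with -0.013 without control replicate 1. Spry1 ran from -0.49 to 0.38 without 1 library, with 0.26 without control replicate 1 and 0.17 without control replicate 2, and Spry2 from -0.47 to 0.037; none of these was called.

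Of the 10 genes, 0 were called lower with TMM factors (edgeR), against 1 with upper-quartile factors, 1 with library size alone, 1 with DESeq2 1.42.0, 0 with the edgeR exact test and 0 with limma-voom 3.58.1. There were 3 with the replicate block and 4 without both libraries numbered 3. Leaving out 1 library gave from 0 to 3 higher and from 0 to 2 lower, the 2 without control replicate 3. The block called Dusp1, Dusp4, Dusp10 and Spry4 in addition and changed no other call of the 10.

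Over all genes, DESeq2 called 2079 higher and 1673 lower, the replicate block 2343 and 2273, and leaving out both libraries numbered 3 gave 3498 and 3159. Without 1 library the counts ran from 379 to 1964 higher and from 112 to 1426 lower. Upper-quartile factors gave 1589 lower and library size alone 2054, which moved the median log2 fold change over all genes to -0.12 and -0.18 and the share of calls that were higher from 57.5% to 39.8% and 32.4%. The cause of the other differences was not tested. With coding length in place of exon length, the level per kilobase moved for all 10 genes, and Dusp4 and Spry2 were still the highest in each group, while Spry4 went from rank 6 to 4 in control and from rank 9 to 5 in LPS. Dusp2, at 1 to 8 counts in control, is the gene whose fold is least precise at this depth.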
